A study of Arabis alpina with 27 samples.

Results

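Starch genes of *Arabis alpina* were followed in stems through a long cold period and the first 5 days after it. The set was drawn up from *A. thaliana*: 36 loci for enzymes, transporters and enzyme partners that make or break down starch, and every *A. alpina* row paired with 1 of these loci was taken as a member. Of the 36 loci, 32 had a row, 1 each, among the 21641 genes of the count table, and all 32 passed the filter on low counts that left 19337 genes for testing. The other 4 loci, *PWD*, *BAM4*, *PTST1* and *DPE2*, were not analysed here. Gene symbols are those of the *A. thaliana* homologs, the chromosome of a gene is the one in its identifier in the count table (start and end were not used here), and the roles given are those known from *A. thaliana*.

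The plants were the accession Pajares, an ecotype that flowers only after cold. RNA from a stem piece of about 2 cm below the rosette was sequenced in 27 libraries of 9 groups, with 3 libraries per group, each made from pooled plants. Plants grew for 8 weeks in long days (LD, 16 h light at 20°C and 8 h dark at 18°C) and were harvested before cold (0w), at the end of a cold period of 4, 8, 12, 16 or 21 weeks (4w, 8w, 12w, 16w, 21w), during which day length stayed the same and the chamber was held at 4°C, or 5 days after a return to warm LD from the 3 longest of these periods (12w+5dLD, 16w+5dLD, 21w+5dLD). No group stayed warm while the cold groups aged, so that cold and age cannot be told apart, and the hour of harvest is not given in the sources used here.

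Starch is built in plastids. Phosphoglucomutase and ADP-glucose pyrophosphorylase (AGPase) supply ADP-glucose, starch synthases and branching enzymes build glucan chains, and isoamylases trim them into a crystallising granule. Breakdown starts when glucan, water dikinases place phosphate on the granule surface, phosphoglucan phosphatases take it off again, and β-amylases, debranching enzymes and phosphorylases release maltose, short glucans and glucose phosphate. In *A. thaliana* leaves starch is turned over daily under control of the circadian clock, and in cold its breakdown to maltose and other sugars is part of acclimation, while stems of perennials hold starch as a reserve.

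The libraries held 16089542 to 22523390 counts. Values are CPM, the counts of a gene per 1000000 counts of the scaled library size. Transcript lengths were not used, so levels are compared only within a gene. A gene was called when its change reached 2-fold at an adjusted p under 0.05 in edgeR's quasi-likelihood test, adjusted over all tested genes. Changes are log2 fold changes ± standard error (SE), and stems are bulk samples, in which fewer cells of a type and less RNA per cell cannot be told apart. All 4 xylem and fibre markers were detected, with a summed level of 1950 to 2500 CPM at 0w and 3.39 to 579 CPM in cold, and of 117 to 983, 777 to 1300 and 511 to 1100 CPM in 12w+5dLD, 16w+5dLD and 21w+5dLD. All 3 phloem markers were present at a summed 57.1 to 295 CPM. Of the 2 photosynthesis genes in the table, which summed to 4220 to 28000 CPM, *CAB1* averaged 5174 CPM at 0w, 25620 CPM at 4w and 4152 to 6265 CPM in the returned groups. *RBCS3B* moved the other way at 4w, from 1609 to 519 CPM. The part of these tissue markers in the changes described here was not tested. The 1 flower marker in the table stayed at or below 3.76 CPM, and root hair markers were not analysed here. The library 21w+5dLD replicate 3 stood apart: its profile correlated with the 21w libraries at r = 0.54 and with its own group at 0.34 over the 1000 most variable genes. Where leaving it out changed the call of a starch gene in a comparison of 21w+5dLD, both values are given. It shares the fit with the other groups, so leaving it out also changed some of their calls, which are counted below for the comparisons with 0w.

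During cold the starch genes were called lower more often than higher. At 16w, 7 of 32 were lower and 1 was higher than at 0w, where 10.2% of all tested genes were called lower and 7.07% higher. At 8w there were 4 lower and 2 higher (9.11% and 6.26% of all genes), and at 12w 3 lower and 1 higher (9.38% and 7.07%). At 4w, 4 were lower and none was higher (7.39% and 5.60%), and at 21w the counts were the same (7.14% and 5.14%). In either direction 25.0% of the starch genes were called at 16w against 17.3% of all genes. The share was closer to the background at 4w (12.5% against 13%), 8w (18.8% against 15.4%), 12w (12.5% against 16.4%) and 21w (12.5% against 12.3%). The median change of the 32 genes ran from -0.2 at 12w to -0.75 at 21w, whereas the median of all tested genes stayed between -0.02 and 0. In 9 starch genes all 15 cold libraries lay below all 3 libraries at 0w, which is 28.1% of the set and 16.7% of all tested genes. These were *APS1*, *APL2*, *APL4*, *SS4*, *SBE2.2*, *ISA2*, *LSF2*, *AMY3* and *PHS1*. In *BAM1* and *LDA* all 15 lay above (6.25% of the set, 11% of all tested genes).

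On return to warmth the starch genes moved in both directions. After 12 weeks of cold 3 were called higher and 5 lower within 5 days (5.77% and 4.88% of all tested genes; 25.0% against 10.6% in either direction). After 16 weeks 5 were higher and 4 lower (6.83% and 4.56%; 28.1% against 11.4% in either direction). *LSF2*, *SS4* and *GBSS1* rose after both durations, and *BAM3*, *LDA*, *PHS2* and *SS1* fell after both. After 21 weeks none of the 32 was called by edgeR, with 10 at an unadjusted p under 0.05 and 1, *PHS2*, called by DESeq2, and 0.393% of all genes were called. Without replicate 3 of 21w+5dLD, 2 starch genes were called higher and 3 lower after 21 weeks, with a background of 5.84%.

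**Figure D1:**
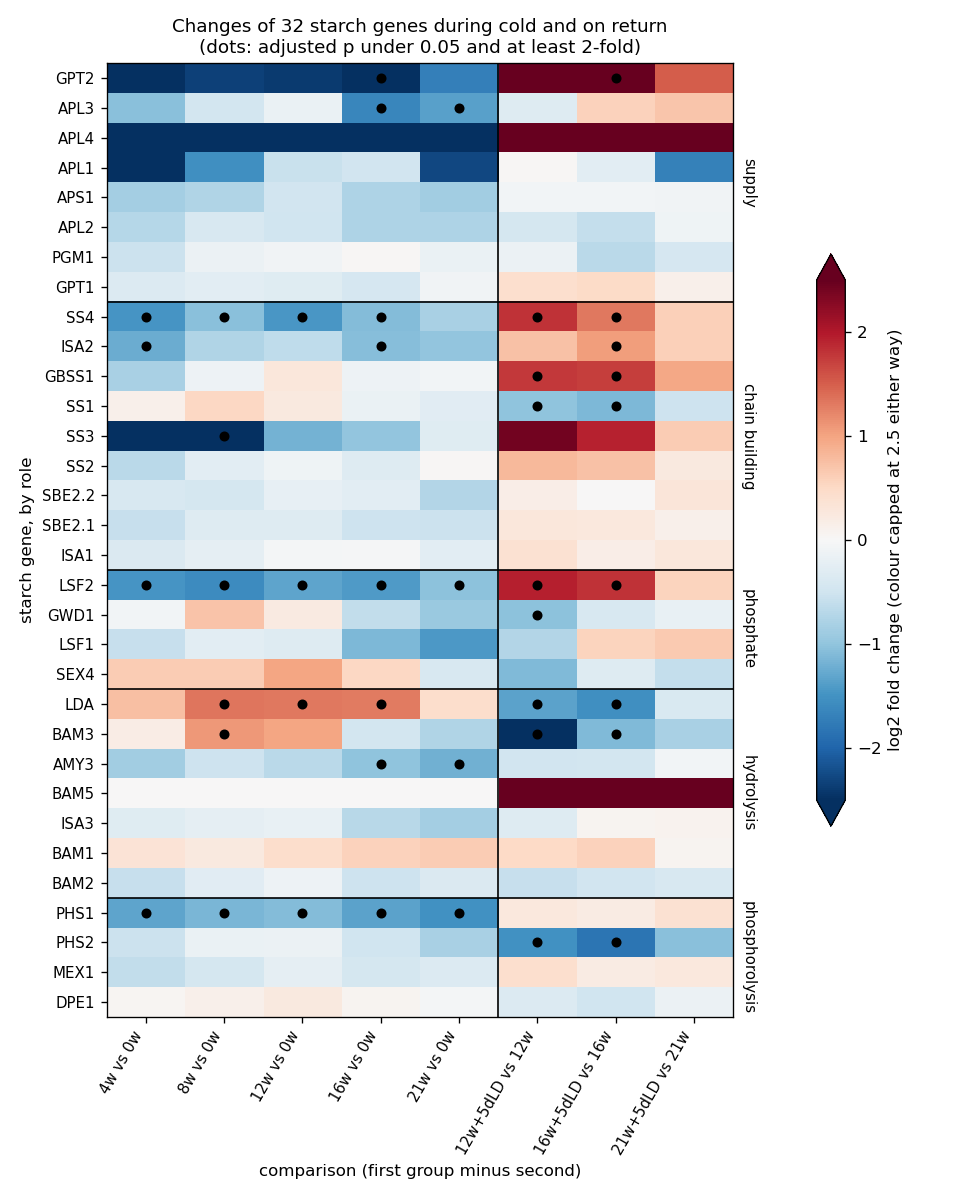
Colour gives the log2 fold change of each of the 32 starch genes (rows, grouped by role) in 8 comparisons (columns), red for higher and blue for lower in the first-named group, and dots mark called genes. *LSF2* and *PHS1* carry a dot in all 5 cold columns, and the column for return after 21 weeks has no dot. The colour of genes with a group at 0 counts (*GPT2*, *SS3*, *BAM5*) rests on a fitted value that has no upper limit.

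The supply of ADP-glucose was covered by 8 members, all with a negative change at 4w, 8w, 12w and 21w, though 2 of them were called at any cold duration. *APS1* (Aa_G10, homolog of AT5G48300, chromosome 6), the small catalytic subunit of AGPase, stood at 172, 167 and 152 CPM at 0w and at 72 to 135 CPM in the 15 cold libraries. No cold library reached the lowest 0w value, and the change ran from -0.47 ± 0.15 at 12w to -0.86 ± 0.15 at 21w (adjusted p = 0.0219 and 0.000365, edgeR), short of 2-fold. On return its level did not move beyond the error (-0.06 ± 0.15, -0.07 ± 0.15 and -0.09 ± 0.15 after 12, 16 and 21 weeks).

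Of the 4 large, regulatory AGPase subunits, *APL3* (Aa_G351990, AT4G39210, chromosome 7), known in *A. thaliana* mainly from sink tissue, was the 1 called in cold. It gave 22.6, 25.3 and 23.4 CPM in the 0w libraries, 19.6, 24.6 and 19.4 CPM after 12 weeks, 10.1, 5.74 and 7.18 CPM after 16 weeks and 6.54, 14.2 and 7.26 CPM after 21 weeks. At 4w it held 10.4 to 13.5 CPM and at 8w 13.4 to 23.1 CPM, without a call at either. The 4w, 16w and 21w libraries were all below the 0w libraries, which overlapped with 8w and 12w. The change was -1.63 ± 0.46 at 16w (adjusted p = 0.00867) and -1.35 ± 0.45 at 21w (0.032). The call at 21w was lost when 1 of 5 of the 6 libraries was left out (adjusted p 0.0585 to 0.119). In 21w+5dLD its values were 31.6, 5.36 and 8.31 CPM, with the highest value in replicate 1.

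*APL2* (Aa_G438560, AT1G27680, chromosome 4) held 69.4 to 76.5 CPM at 0w, 35.4 to 64.5 CPM in cold and 27.4, 30.2 and 26.4 CPM at 16w+5dLD. The last group had the lowest mean of the 9 and was called against 0w (-1.37 ± 0.19, adjusted p = 5.11e-05). At 21w+5dLD the change from 0w was -0.89, and -1.07 without replicate 3, which was then called (adjusted p = 0.00104). *APL1*, the main large subunit of *A. thaliana* leaves, read 16.7, 13.1 and 14.3 CPM at 0w but 0 in 7 of the other libraries, 2 of them at 21w and 2 at 21w+5dLD. Libraries at 0 and above 9 CPM occurred within 1 group, for example 9.08, 0 and 0 CPM at 21w, and no comparison of *APL1* was called. *APL4* was at 13.1 to 22.6 CPM at 0w, at or below 5.23 CPM in cold with 8 libraries at 0, and at 3.95 to 15.4 CPM after return. No comparison of *APL4* was called by edgeR, and 1, 4w against 0w, was called by DESeq2.

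*GPT2* (Aa_G706910, AT1G61800, chromosome 2), which brings glucose 6-phosphate into plastids of tissue that imports sugar, was low throughout. Its values were 5.49, 5.09 and 2.9 CPM at 0w, 0 in all 3 libraries at 16w and 9.57, 12 and 1.77 CPM at 16w+5dLD. It was low in the other cold groups as well, without a call against 0w. The means were 0.182, 0.877, 0.849 and 1.36 CPM at 4w, 8w, 12w and 21w, and 7.2 and 3.9 CPM at 12w+5dLD and 21w+5dLD. In all, 9 libraries were at 0, each of them from cold. Against a floor of 3 counts per library, *GPT2* was at least 27.4-fold lower at 16w than at 0w (adjusted p = 0.0211) and at least 47.6-fold higher 5 days later (adjusted p = 0.02). Both calls were lost without any 1 of the 16w libraries (adjusted p 0.0585 to 0.0618). *GPT1*, the constitutive transporter, and *PGM1*, the plastid phosphoglucomutase, were never called. *PGM1* fell by less than 2-fold at 4w (-0.53 ± 0.13, adjusted p = 0.00363) and on return after 16 weeks (-0.67 ± 0.13, adjusted p = 0.000796). After 21 weeks its change was -0.42, and -0.57 without replicate 3 of 21w+5dLD (adjusted p = 0.00627).

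Of the 9 chain-building members, 8 had a positive change on return after each of the 3 cold durations. *SS4* (Aa_G176430, AT4G18240, chromosome 7), the starch synthase known for starting new granules, held 41.7, 38 and 33.8 CPM at 0w. Its cold libraries lay between 5.95 and 23.4 CPM, all below 0w. It was called lower at 4w (-1.47 ± 0.38, adjusted p = 0.00563), 8w, 12w and 16w, and reached -0.82 ± 0.37 at 21w (0.108). At 12w+5dLD it read 44.3, 45.3 and 54.4 CPM, above every library at 12w (15.4, 18.9 and 6.77 CPM) and at 0w. The rise was 1.81 ± 0.38 after 12 weeks (adjusted p = 0.00154) and 1.32 ± 0.38 after 16 weeks (0.0132). Of 6 fits that each left out 1 library, 5 lost the call at 8w and 4 that at 16w, and the call on return after 16 weeks was lost without 16w replicate 2 (1.11, adjusted p = 0.0687).

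*ISA2* (Aa_G135100, AT1G03310, chromosome 1), the non-catalytic partner of the isoamylase *ISA1*, showed a similar course at a smaller size. It stood at 24.6, 18.2 and 19.8 CPM before cold, 8.49, 7.97 and 9.97 CPM after 4 weeks, 12.2, 8.89 and 8.69 CPM after 16 weeks and 20.3, 18.1 and 23.3 CPM in the 16w+5dLD libraries. The cold libraries, at 7.97 to 15 CPM, did not overlap with 0w, and those of 16w+5dLD did. It was called lower at 4w (-1.24 ± 0.25, adjusted p = 0.0007) and 16w (-1.07 ± 0.24, 0.00184) and higher on return after 16 weeks (1.05 ± 0.24, 0.0033). Both 16w calls sat at the 2-fold limit and fell below it in 2 and 3 leave-one-out fits (lowest absolute change 0.94). After 21 weeks the change on return was 0.6, and 0.88 without replicate 3 of 21w+5dLD (adjusted p = 0.00516). *ISA1* itself did not reach 2-fold in any comparison and rose by 0.39 ± 0.1 on return after 12 weeks (adjusted p = 0.00693).

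*GBSS1* (Aa_G376040, AT1G32900, chromosome 1), the granule-bound synthase that makes amylose, reached levels after return that no library before or during cold had. It was at 41.4, 37.8 and 35.9 CPM before cold and at 41.3, 51.8 and 46.5 CPM after 12 weeks, then at 149, 174 and 148 CPM in the 12w+5dLD libraries. At 16w it read 42, 31.2 and 31.6 CPM, and at 16w+5dLD 123, 107 and 119 CPM. The groups before and after these returns did not overlap. The rise on return was 1.76 ± 0.24 after 12 weeks (adjusted p = 3.53e-05) and 1.73 ± 0.24 after 16 weeks (7.47e-05), and against 0w the changes were 2.04 ± 0.24 and 1.6 ± 0.24. At 21w+5dLD the 3 libraries gave 93.1, 88.4 and 34.3 CPM against 39.4, 36.4 and 34.6 CPM at 21w. The low value was that of replicate 3, and the change was 0.97 ± 0.23 with it (adjusted p = 0.052) and 1.29 without it (3.28e-06). Against 0w the same group gave 0.91 and, without replicate 3, a called 1.24. In cold *GBSS1* was lower than at 0w at 4w alone by the adjusted p (-0.81 ± 0.23, 0.0121), without reaching 2-fold.

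*SS1* (Aa_G46030, AT5G24300, chromosome 8), which makes the shortest amylopectin chains, went the other way. It held 120, 138 and 126 CPM at 12w and 52.8, 74.1 and 63 CPM at 12w+5dLD, and 110, 89.7 and 92.1 CPM at 16w and 36.9, 43.7 and 52.5 CPM at 16w+5dLD. The returned libraries lay below all cold libraries of the same duration and below all 0w libraries (112, 95.2 and 117 CPM). The fall was -1.01 ± 0.23 after 12 weeks (adjusted p = 0.00241) and -1.13 ± 0.23 after 16 weeks (0.0011). The first of these was at the 2-fold limit and was not called by DESeq2 (-0.99) or under both other scalings. After 21 weeks *SS1* gave 47.6, 41.2 and 98.3 CPM, replicate 3 again near the 21w values (103, 85 and 78.9 CPM), and the change was -0.51 ± 0.22 with it and -1.01 without it (adjusted p = 0.00029). Against 0w the values were -0.79 and -1.29, the second of them called. *SS2* rose on return by 0.81 ± 0.22 and 0.74 ± 0.22 after 12 and 16 weeks (adjusted p = 0.00891 and 0.0158) without a call. The branching enzymes *SBE2.1* and *SBE2.2* changed by less than 2-fold at every cold duration, *SBE2.1* past the adjusted p at all 5 (-0.32 to -0.57).

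*SS3* (Aa_G339030, AT1G11720, chromosome 1), a synthase of longer chains, was listed at 20.1, 22.7 and 10.7 CPM before cold, at 0 in all 3 of the 8w libraries, and at 32.6, 46.7 and 46.6 CPM in the 12w+5dLD libraries. It was at least 107-fold lower at 8w than at 0w (adjusted p = 0.00751). These values carry a limit from the counting. In 8 libraries its count was identical to that of the neighbouring gene (homolog of AT1G11710), and it was at 0 in 7 others, in which the neighbour was counted.

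**Figure D2:**
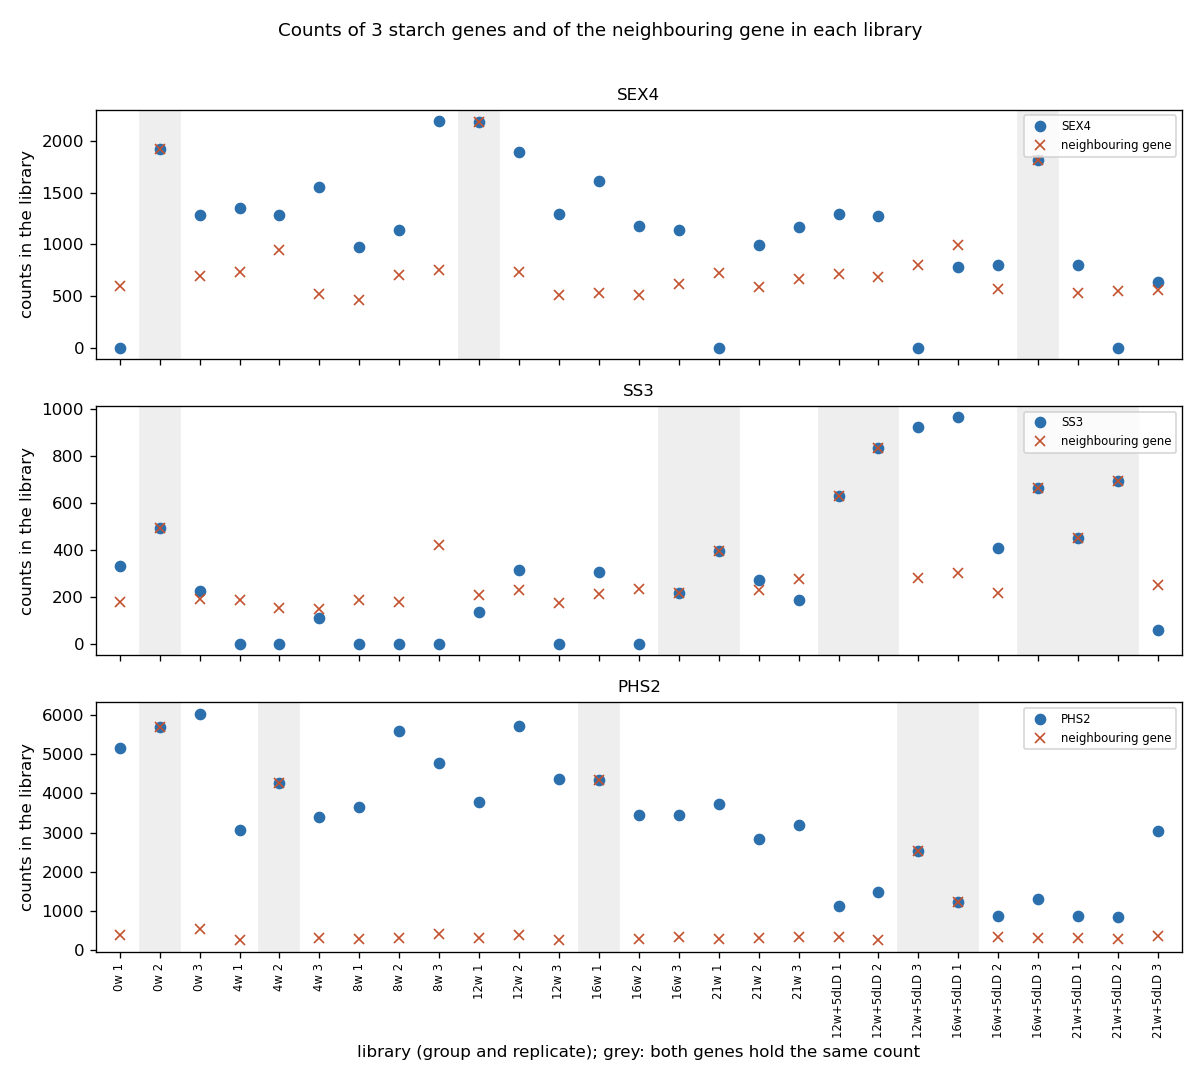
Counts (y axis) of *SEX4*, *SS3* and *PHS2* (circles) and of the neighbouring gene (crosses) in each of the 27 libraries (x axis). Grey bands mark libraries in which both genes hold the same count, 3 for *SEX4*, 8 for *SS3* and 5 for *PHS2*, and circles at 0 beside a counted neighbour are seen for *SEX4* and *SS3*.

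The phosphate cycle on the granule surface was covered by the kinase *GWD1* and the phosphatases *SEX4*, *LSF1* and *LSF2*. *GWD1* (Aa_G43230, AT1G10760, chromosome 1), the glucan, water dikinase that opens breakdown, first rose and then fell as cold went on. It read 376, 349 and 373 CPM (0w), then 338, 340 and 374 (4w), 545, 579 and 667 (8w), 447, 450 and 395 (12w), 259, 230 and 225 (16w) and finally 188, 192 and 198 CPM (21w). The 8w and 12w libraries were all above 0w, the 16w and 21w libraries all below, and only 4w overlapped with 0w. The change was 0.71 ± 0.09 at 8w (adjusted p = 5.78e-06), 0.23 ± 0.09 at 12w (0.0428), -0.62 ± 0.09 at 16w (1.94e-05) and -0.93 ± 0.09 at 21w (7.11e-07). From 4w to 21w it fell by 0.87 on the log2 scale (SE 0.09, adjusted p = 3.84e-06). None of these cold changes reached 2-fold.

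After return *GWD1* stood at 194, 221 and 221 CPM following 12 weeks of cold, 172, 187 and 178 following 16 weeks and 169, 153 and 183 following 21 weeks. All 9 returned libraries lay below every 0w, 4w, 8w, 12w and 16w library. The change on return was -1.02 ± 0.09 after 12 weeks (adjusted p = 8.39e-07), -0.41 ± 0.09 after 16 weeks (0.00169) and -0.19 ± 0.09 after 21 weeks (0.261; -0.26 without replicate 3). The call after 12 weeks stood at the 2-fold limit, with -0.96 to -0.99 in 4 alternatives. Against 0w *GWD1* was called lower after 16 weeks (-1.03 ± 0.09) and 21 weeks (-1.12 ± 0.09, and -1.19 without replicate 3).

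*LSF2* (Aa_G136790, AT3G10940, chromosome 3), a phosphatase that removes phosphate from the granule, was with *PHS1* 1 of 2 starch genes called lower at all 5 cold durations, as were 3.33% of all tested genes. None was called higher at all 5 (2.23% of all tested genes). It gave 12.3, 11.6 and 8.37 CPM at 0w and 2.49 to 6.19 CPM in cold, without overlap. The change was between -1.57 ± 0.31 at 8w (adjusted p = 0.00052) and -1.03 ± 0.3 at 21w (0.0146). The 21w call was lost in 4 leave-one-out fits (-0.93 to -0.98). On return it reached 14.2, 16.6 and 19.3 CPM after 12 weeks and 14.1, 12.8 and 15.3 CPM after 16 weeks, all above 0w. The rise was 1.95 ± 0.31 (adjusted p = 0.000155) and 1.81 ± 0.31 (0.000316). At 21w+5dLD it was at 10.8, 8.49 and 3.95 CPM, the last value being replicate 3 and below the 21w libraries (4.66, 4.89 and 6.19 CPM). The change was 0.56 with that library and 0.87 without it (adjusted p = 0.0323).

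*LSF1*, a catalytically inactive relative that binds β-amylases in *A. thaliana*, read 22.2 to 24.3 CPM at 0w and 7.53 to 9.95 CPM at 21w, and 1 library, 12w+5dLD replicate 1, was at 0. The change at 21w was -1.43 ± 0.85 (adjusted p = 0.229), and no comparison of *LSF1* was called. *SEX4*, the main glucan phosphatase, was listed at 0 in 4 libraries of 4 groups and at 29.7 to 120 CPM in the rest. In 3 libraries its count equalled that of its neighbour (homolog of AT3G52170), so no direction is given for it.

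Among the enzymes that cut glucan chains, the debranching enzyme *LDA* and the β-amylase *BAM3* were the 2 members called higher in cold. *LDA* (Aa_G73010, AT5G04360, chromosome 8), limit dextrinase, rose from 32.9, 24.7 and 31.2 CPM (0w) to 73.1, 74.5 and 76.7 (8w), 77.1, 72.7 and 71.2 (12w) and 72.9, 77.9 and 66.7 CPM (16w). Its 21w libraries gave 33.8, 47.2 and 38.5 CPM, still above each 0w library. The changes were 1.34 ± 0.26, 1.32 ± 0.26 and 1.29 ± 0.26 at 8w, 12w and 16w (adjusted p = 0.000475, 0.000528 and 0.000587) and 0.43 ± 0.25 at 21w (0.228). On return it fell to 29.3, 31.3 and 27.6 CPM after 12 weeks (-1.33 ± 0.26, adjusted p = 0.00082) and 22.8, 21.8 and 30.6 CPM after 16 weeks (-1.53 ± 0.26, 0.000299), values that overlapped with 0w. After 21 weeks the change was -0.39, and without replicate 3 it passed the adjusted p at the 2-fold limit without a call (-1, 0.000535). Against 0w that group gave 0.04, and -0.57 without replicate 3 (adjusted p = 0.0246). All 5 calls of *LDA* held in every alternative tried.

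*BAM3* (Aa_G16660, AT4G17090, chromosome 1), the main plastid β-amylase of *A. thaliana* leaves and known to be induced by cold there, was likewise highest in the middle of the cold period. Its levels were 242, 327 and 344 CPM (0w), then 365, 356 and 321 (4w), 514, 722 and 712 (8w), 473, 739 and 607 (12w), 246, 205 and 216 (16w) and 191, 176 and 175 CPM (21w). All 8w and 12w libraries exceeded all 0w libraries, and the 21w libraries were all below. The rise was 1.09 ± 0.28 at 8w (adjusted p = 0.00498) and 0.99 ± 0.28 at 12w (0.00918), the second short of 2-fold. At 21w the change was -0.76 ± 0.28 (adjusted p = 0.0494). The 8w value fell to 0.95 without 0w replicate 1, the lowest 0w library.

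On return *BAM3* dropped to 74.2, 98.5 and 104 CPM after 12 weeks, 87, 124 and 98.7 CPM after 16 weeks and 83.8, 54.8 and 169 CPM after 21 weeks. Every returned library was below every library taken before or during cold, as was also the case for *PHS2*. The share of all tested genes with this pattern was not worked out. The fall of *BAM3* was -2.71 ± 0.3 after 12 weeks (adjusted p = 6.18e-06) and -1.11 ± 0.28 after 16 weeks (0.00629). After 21 weeks it was -0.81 ± 0.28 (adjusted p = 0.135), and -1.39 without replicate 3 (0.000425). Against 0w all 3 returned groups were called lower, by -1.72 ± 0.29, -1.56 ± 0.28 and -1.57 ± 0.28. The last of these was -2.14 without replicate 3, and -1.53 in a fit of the compared groups alone, where it did not pass (adjusted p = 0.107).

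*AMY3* (Aa_G529230, AT1G69830, chromosome 2), the plastid α-amylase, was at 262, 226 and 234 CPM at 0w and between 101 and 184 CPM in cold. No cold library overlapped with 0w, and the change passed the adjusted p at all 5 durations, reaching 2-fold at 16w (-1 ± 0.18, adjusted p = 0.00018) and 21w (-1.21 ± 0.18, 5.1e-05). After return it held 73.5, 102 and 147 CPM (12w+5dLD), 73.7, 83.3 and 107 CPM (16w+5dLD) and 87.5, 94.5 and 115 CPM (21w+5dLD). All of these were below 0w, and all 3 groups were called lower than 0w (-1.16 ± 0.18, -1.45 ± 0.18 and -1.28 ± 0.18, the last -1.41 without replicate 3). The call at 16w was at the limit and was lost in 3 leave-one-out fits (-0.94 to -0.99).

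*BAM1* (Aa_G694790, AT3G23920, chromosome 3), a plastid β-amylase linked to stress and guard cells, was above its 0w level in every later library. It stood at 112, 109 and 107 CPM at 0w, 124 to 187 CPM in cold, 189, 227 and 212 CPM at 12w+5dLD and 242, 247 and 237 CPM at 16w+5dLD. The change was called once, at 16w+5dLD against 0w (1.15 ± 0.14, adjusted p = 1.05e-05), and passed the adjusted p without reaching 2-fold at 12w, 16w and 21w (0.44 ± 0.14, 0.57 ± 0.14 and 0.63 ± 0.14). *ISA3*, a debranching enzyme, was not called, and *BAM2* was called by DESeq2 alone, at 16w+5dLD against 0w. *BAM5* (Aa_G601610, AT4G15210, chromosome NA), a β-amylase found outside plastids in *A. thaliana*, had 0 counts in all 18 libraries before and during cold. After return it read 6.98, 5.27 and 3.53 CPM following 12 weeks, 0.684, 0 and 4.3 following 16 weeks and 5.58, 3.82 and 0 following 21 weeks. These means are at least 31.2-fold, 10.1-fold and 20.6-fold above the floor of 3 counts, and the test gave adjusted p = 0.0512, 0.0794 and 0.182. Without replicate 3 of 21w+5dLD, 1 of the libraries at 0, the last of these was 0.0407 and *BAM5* was called higher, as it was against 0w (0.0393, and 0.0771 with that library).

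The phosphorolytic branch had 1 gene called lower in cold and 1 called lower on return, the second with smaller, uncalled decreases in cold. *PHS1* (Aa_G247740, AT3G29320, chromosome 5), the plastid glucan phosphorylase, was at 383, 309 and 388 CPM at 0w and between 110 and 185 CPM in all 15 cold libraries. It was called lower at all 5 durations, from -1.09 ± 0.19 at 12w (adjusted p = 0.000145) to -1.51 ± 0.19 at 21w (1.02e-05). The 12w value was -0.97 without 12w replicate 1. On return it changed by 0.26 ± 0.18, 0.2 ± 0.18 and 0.38 ± 0.18, none past the test, and stayed below 0w at 119 to 222 CPM. Without replicate 3 of 21w+5dLD the last value was 0.56 and passed the adjusted p (0.0394), short of 2-fold. It was called lower than 0w after 16 and 21 weeks (both -1.13 ± 0.19), the second with -0.94 when replicate 3 was left out.

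*PHS2* (Aa_G88900, AT3G46970, chromosome 5), the cytosolic phosphorylase that acts on glucans made from maltose, was at 311, 260 and 287 CPM (0w), 208, 290 and 273 CPM (12w) and 222, 208 and 179 CPM (16w). It held 179 to 222 CPM at 4w, 228 to 301 CPM at 8w and 156 to 175 CPM at 21w. The 4w, 16w and 21w libraries were all below 0w, and those of 8w and 12w overlapped with it. Its changes in cold ran from -0.15 to -0.81 without a call. It dropped to 57.8, 82.7 and 128 CPM at 12w+5dLD and to 59.9, 51.8 and 61.3 CPM at 16w+5dLD, without overlap. The fall was -1.52 ± 0.32 (adjusted p = 0.00153) and -1.82 ± 0.32 (0.000449). After 21 weeks it read 48.2, 47.8 and 143 CPM, and the change was -1.04 ± 0.32 with replicate 3 (adjusted p = 0.0961) and -1.77 without it (5.89e-05). In 5 libraries, among them 12w+5dLD replicate 3, its count was identical to that of the neighbouring gene, whose counts in the other libraries were 258 to 533. The maltose exporter *MEX1* fell at 4w (-0.61 ± 0.13, adjusted p = 0.0018) and the disproportionating enzyme *DPE1* on return after 16 weeks (-0.49 ± 0.14, 0.0117), both by less than 2-fold.

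**Figure D3:**
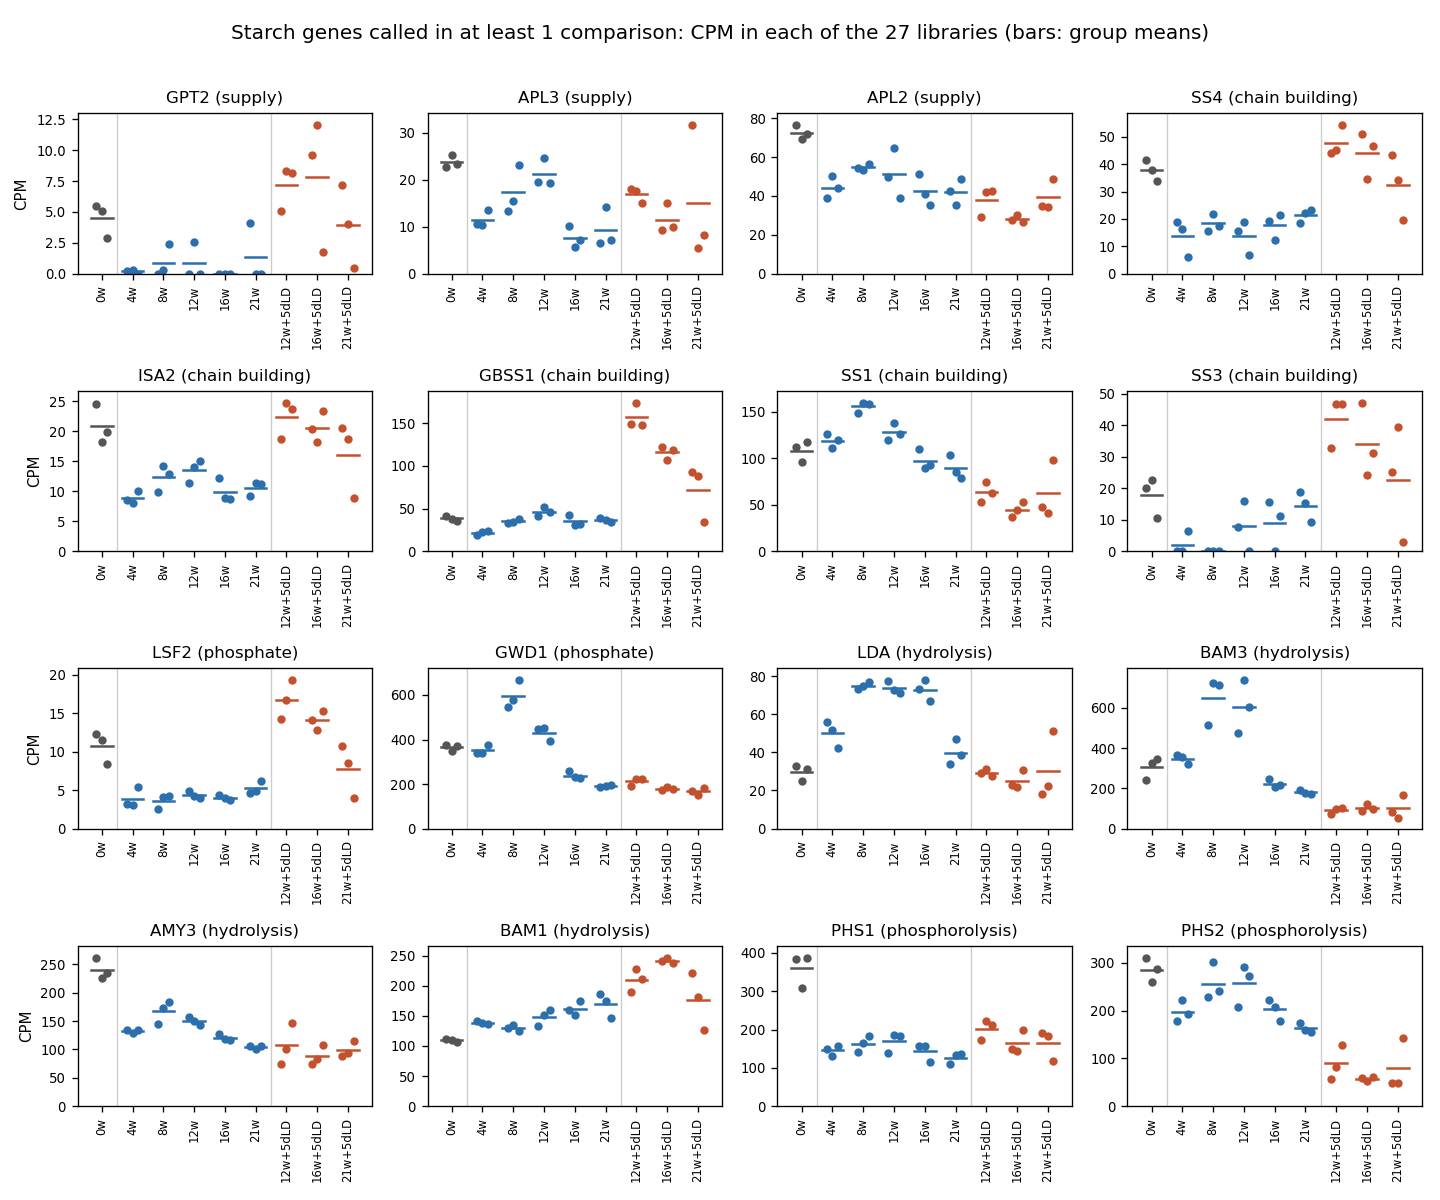
CPM (y axis, each panel from 0) of the 16 starch genes called in at least 1 of the 13 comparisons, in each library (points) with the group mean (bars), for 0w (grey), cold (blue) and return (red). *GWD1* and *BAM3* are highest at 8w and 12w, *BAM3* is lowest after return, *GBSS1* is at 107 to 174 CPM in the 12w+5dLD and 16w+5dLD libraries, and the third 21w+5dLD point often lies near the 21w points.

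Counted over the 13 comparisons, edgeR called 16 of the 32 starch genes at least once and 16 never. Of the latter, DESeq2 called *APL4* and *BAM2* once each. None of the 32 was called higher at 1 cold duration and lower at another. The shares of all tested genes for these counts were not worked out, so the counts describe the set only. Against plants that had never been cold, 1 was higher and 3 lower at 12w+5dLD (3.24% and 3.64% of all tested genes, 6.88% in either direction). At 16w+5dLD 2 were higher and 7 lower (4.20% and 3.54%, 7.74% in either direction). At 21w+5dLD none was higher and 5 were lower (3.69% and 4.04%, 7.74% in either direction), or 2 higher and 6 lower without replicate 3 (7.38% in either direction). These comparisons share the 0w libraries with the cold comparisons. Of the 17 synthesis genes none was called lower at 12w+5dLD and 2, *APL2* and *SS1*, at 16w+5dLD. At 21w+5dLD none was called lower, and *APL2* and *SS1* were when replicate 3 was left out. Of the 15 breakdown genes 3, 5 and 5 were called lower in the same 3 groups, and 4 in the last without replicate 3. Called higher were 1, 1 and 0 synthesis genes and 0, 1 and 0 breakdown genes, and 1 of each in the last without replicate 3. Leaving out that library also changed the shared fit of the other groups. Without it 1 breakdown gene was called higher at 12w+5dLD, and 2 were higher and 6 lower at 16w+5dLD.

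Within cold, 21w was compared with 4w and with 16w only, and no starch gene was called in these comparisons. The durations between 4w and 16w were not tested against 21w. All their libraries of *GWD1*, *BAM3* and *LDA* lay above the 21w libraries, so a fall from mid to late cold in these genes was not tested. For 21w against 4w, 6 had an unadjusted p under 0.05 and DESeq2 called 0 (background 4.53%). For 21w against 16w, 4 had an unadjusted p under 0.05 and DESeq2 called 1, *GPT2* (background 1.58%).

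The size of the return change was compared between cold durations within the same fit. For 2 of the 32 genes, *GWD1* and *BAM3*, the change on return was smaller after 21 weeks than after 12 weeks, a comparison in which 3.03% of all tested genes differed (2.19% without replicate 3). DESeq2 also called *LSF2* there. The difference was 0.83 ± 0.12 for *GWD1* (changes of -0.19 and -1.02, adjusted p = 0.00209) and 1.9 ± 0.4 for *BAM3* (changes of -0.81 and -2.71, adjusted p = 0.0153). *GWD1* fell from 395 to 450 CPM into 194 to 221 CPM after 12 weeks, and its 21w libraries held 188 to 198 CPM and its 21w+5dLD libraries 153 to 183 CPM. *BAM3* fell from 473 to 739 CPM into 74.2 to 104 CPM after 12 weeks, and its 21w libraries held 175 to 191 CPM and its 21w+5dLD libraries 54.8 to 169 CPM. Without replicate 3 of 21w+5dLD the differences were 0.76 and 1.32 (adjusted p = 0.00385 and 0.023). In a fit of the 4 groups alone they were 0.81 and 1.88 and did not pass (0.0907 and 0.186). Between 21 and 16 weeks no gene passed by edgeR (5 at an unadjusted p under 0.05, 2 by DESeq2, background 1.78%, and 0.782% without replicate 3), nor between 16 and 12 weeks (4 at an unadjusted p under 0.05, 2 by DESeq2, background 0.0207%). The 2 called by DESeq2 between 16 and 12 weeks were *GWD1* and *BAM3*. Their differences there were 0.61 ± 0.12 and 1.61 ± 0.4 in edgeR (adjusted p = 0.115 and 0.172). Between 21 and 16 weeks they were 0.22 ± 0.12 and 0.29 ± 0.39.

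**Figure D4:**
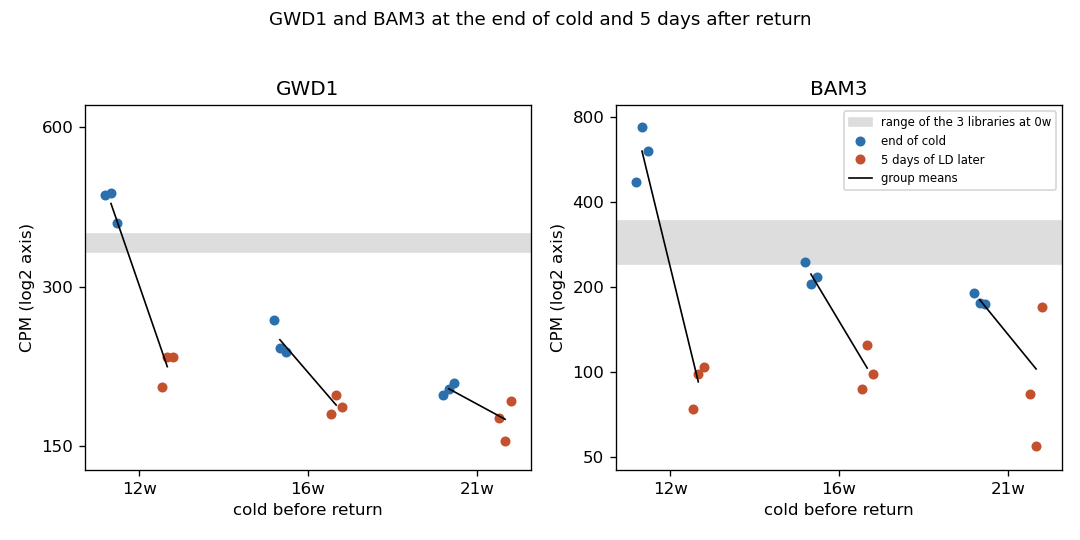
CPM on a log2 axis of *GWD1* and *BAM3* at the end of cold (blue) and 5 days after return (red), for 12, 16 and 21 weeks of cold (x axis), with lines between group means and a grey band for the range at 0w. *GWD1* starts at 395 to 450 CPM at 12w and at 188 to 198 CPM at 21w and ends between 153 and 221 CPM in all 9 returned libraries.

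Clock genes moved as well in cold and on return after 12 and 16 weeks. Of 8 clock genes, a list chosen after the data had been seen, 7 were tested. On return after 12 weeks 6 of these were called lower (4.88% of all tested genes). After 16 weeks 5 were lower and 1 higher (4.56% and 6.83%), and after 21 weeks none was called (0.393% in either direction). *TOC1*, an evening clock gene, was at 277 to 307 CPM at 12w and 23.1 to 27.4 CPM at 12w+5dLD. At 21w+5dLD it was at 15.7 and 22.9 CPM in replicates 1 and 2 and at 234 CPM in replicate 3, the library in which *BAM3*, *SS1*, *PHS2* and *GBSS1* also kept values near or at those of 21w. *LHY*, a morning clock gene, was at 15 to 26.7 CPM at 0w and at 83.2 to 151 CPM in cold. The part of the clock or of the hour of harvest in the starch gene changes was not tested.

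Other genes of the pathway were taken from a second list of 23 loci, of which 19 were tested. Against 0w, 1 was called higher at each of 4w, 8w, 12w and 16w and none at 21w, and 1 was lower at 4w and 21w and 2 at 8w, 12w and 16w, beside the shares of all genes given above. The gene that rose was *PII1*, a partner of *SS4* in granule initiation, from 29.5 CPM on average to 138, 103, 105 and 66.8 CPM (2.22 ± 0.4, 1.8 ± 0.4, 1.83 ± 0.4 and 1.18 ± 0.39, the last at adjusted p = 0.0232). *PGM3*, a cytosolic phosphoglucomutase, fell at all 5 durations (-1.59 to -2.25). The hexokinase *HXK1* was called lower at 12w and 16w (-1.02 ± 0.12 and -1 ± 0.12), at the 2-fold limit. At 4w, 8w and 21w it passed the adjusted p short of 2-fold (-0.89, -0.99 and -0.8, each ± 0.12). The α-amylase *AMY2* was lower at 8w, with 0 counts against 6.78 CPM at 0w (adjusted p = 0.00787). *PGM3* has a near-identical copy, *PGM2*, and reads of the pair may have been split between them, which was not tested. *PGM2* was lower than at 0w at all 5 durations as well, from -0.72 at 4w to -0.92 at 16w, without a call. On return 2 were called higher and 1 lower after 12 weeks, 2 higher and 0 lower after 16 weeks, and 1 higher and 0 lower after 21 weeks. Of all tested genes 10.6%, 11.4% and 0.393% were called in either direction. *LESV*, a protein that binds amylopectin, rose after all 3 (1.02 ± 0.21, 1.05 ± 0.21 and 1.01 ± 0.21, the last at adjusted p = 0.0418), and by 1.27 after 21 weeks without replicate 3. *PGM3* rose after 12 and 16 weeks (2.11 and 1.19 ± 0.39, adjusted p = 0.000728 and 0.029). *SBE1*, named for a branching enzyme, was lower after 12 weeks, with 0 counts against 12.2 CPM at 12w (adjusted p = 0.00413).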

How the data were processed

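The authors aligned single-end reads of strand-specific poly-A libraries with HISAT2, quantified them with StringTie and derived whole-number counts per gene with its conversion script. The sources used here give neither tool versions nor a genome build. The deposited counts were used as given. The authors' comparison sheets (DESeq2 log2 fold changes and adjusted p-values) were used only to fill 1 missing homolog identifier, which was of no starch gene. Counts from coverage can be shared between neighbouring genes, so counts of 0 and counts of at least 100 identical to a neighbour's were listed.

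The 27 libraries (16089542 to 22523390 counts) were fitted together in edgeR 4.0.16 under R 4.3.3, with TMM scaling, filterByExpr by group and 1 quasi-likelihood model of the 9 groups (18 residual degrees of freedom). Benjamini-Hochberg adjustment ran over all 19337 tested genes. SE is the absolute log2 fold change divided by the square root of F. The script was tested on simulated counts. A fold against a group at 0 uses a floor of 3 counts per library and covers counting error only. The replicates are described as biological, and p-values measure the spread between libraries, each a pool of plants. Differences between returns were tested as contrasts. Genes called in any of the 13 comparisons are named, with values per library for up to 4 per role, and so are *APS1*, *APL1*, *GWD1*, *BAM1*, *BAM3*, *PHS1* and *GBSS1* in any case; other genes named were picked for their zeros, shared counts or roles after their values were seen. Members and lists were chosen with earlier results of these data known. Alternatives were DESeq2 1.42.0, 2 other scalings, 2 filters, fits of the compared groups alone, no fold threshold, a replicate block and leaving out each library of the compared groups. Libraries with the same replicate number did not deviate together over the 1000 most variable genes (mean r = 0.00702 over 108 pairs, none above 0.1). This cannot show whether samples with the same number were handled together, and the main fit did not pair them.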

Additional observations from a re-analysis of the deposited data

Results flagged for a closer look

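*GWD1* and *BAM3* were singled out because the change on return differed between cold durations in a test of the difference itself. For *GWD1* the change was -0.19 after 21 weeks and -1.02 after 12 weeks of cold, a difference of 0.83 (SE 0.12, adjusted p = 0.00209, edgeR). For *BAM3* the changes were -0.81 and -2.71, a difference of 1.9 (SE 0.4, adjusted p = 0.0153). The 21w+5dLD group contains replicate 3, which resembled 21w. Without it the differences were 0.76 and 1.32. In a fit of the 4 groups alone neither passed (0.81 and 1.88, adjusted p = 0.0907 and 0.186).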

How the results depend on the processing

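Each of the 63 calls was checked under every alternative that bears on it, 831 checks in all. None changed direction, the call held in 780, and it missed a threshold in 51. Without the fold threshold, the counts of starch genes were 15, 12, 12, 16 and 13 at 4w, 8w, 12w, 16w and 21w, 15 and 16 on return after 12 and 16 weeks, 13 and 14 for 12w+5dLD and 21w+5dLD against 0w, 4 for 21w against 4w and 1 for 21w against 16w. In fits of the compared groups alone they were 7 at 4w, 3 for 21w+5dLD against 0w and 0 for the difference between the returns after 21 and 12 weeks. DESeq2 gave 1 on return after 21 weeks, 1 for 21w against 16w, and 2 for each of the differences between returns after 21 and 16 and after 16 and 12 weeks. The shares of all tested genes under these alternatives were not worked out. Those given above for cold and return are of calls at 2-fold, so the counts without the fold threshold cannot be set beside them. The cause of these differences in count was not tested.

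Only libraries of the compared groups were left out for the ranges given here. Leaving out 1 such library at a time gave 4 to 5, 4 to 6, 4 to 6, 5 to 8 and 2 to 5 calls at 4w, 8w, 12w, 16w and 21w, the lowest at 21w without 0w replicate 1. It gave 6 to 8, 6 to 9 and 0 to 5 calls on return after 12, 16 and 21 weeks, the 5 without 21w+5dLD replicate 3 and the 6 without 16w replicate 2 after 16 weeks. Against 0w the returned groups gave 4 to 5, 9 to 10 and 5 to 8 calls, late against early cold 0 to 1 (21w against 4w) and 0 (21w against 16w), and the differences between returns 2 to 5 (21 against 12 weeks), 0 to 3 (21 against 16) and 0 (16 against 12), with the highest values of the first and second without 21w+5dLD replicate 1. Leaving out 21w+5dLD replicate 3 also moved the counts of 12w+5dLD and 16w+5dLD against 0w, as given above, which these ranges do not cover.

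The replicate block gave 4, 6, 5, 9 and 5 calls in cold and 8, 9 and 0 on return, and no count moved by more than 1.5 times. Other scalings moved the median of all genes by at most 0.051. Members without zeros or shared counts, a choice made after seeing the data, gave 7 calls at 16w and 7 and 7 on return after 12 and 16 weeks. With 3 libraries per group, changes near 2-fold and genes with libraries at 0 are the least certain.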
